A study of Mus musculus with 8 samples.

Results

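Aerocytes are the thin, widely spread capillary endothelial cells of the alveolar wall, and 8 genes that mark them, Car4, Ednrb, Apln, Fibin, Prx, Emcn, Sirpa and Chst1, were followed in lungs that lack nitric oxide synthase. They were selected by symbol from the 15728 genes of the deposited table, and all 8 were listed and passed the filter on low values. The lungs came from 4 triply n/i/eNOSs-/- mice, which lack the neuronal, inducible and endothelial synthase genes, and from 4 wild type mice (WT). Both genotypes were labelled as C57BL/6J in strain background, 4 weeks of age, with unexposed lungs. The labels name no promoter, Cre line or pooling of animals. Cap analysis of gene expression (CAGE) counts the capped 5′ ends of RNA, so 1 tag stands for 1 transcript start whatever the length of the transcript. Levels are in CPM, the reads of a gene per 1000000 reads of its library.

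The alveolar capillary bed is a mosaic of aerocytes and general capillary cells. Aerocytes lie against alveolar type 1 cells and serve gas exchange, while general capillary cells regulate vessel tone and act as progenitors of both types. Apelin from aerocytes signals to the apelin receptor on general capillary cells. The endothelin B receptor on endothelium binds and clears endothelins and is coupled to nitric oxide release. In whole lung RNA, fewer cells of a type and less RNA per cell cannot be told apart, and several of the 8 genes are also used outside aerocytes.

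Library totals were 13014134 to 15096188 reads in the triple knockout and 15598154 to 18593915 reads in WT, so every knockout library was shallower. Nos3, the endothelial synthase gene, stood at 5.56, 8.32, 8.83 and 6.76 CPM in the 4 knockout libraries and at 18.2, 22.8, 19.8 and 18.6 CPM in the 4 WT libraries. All 4 knockout libraries were below all WT libraries, with a log2 difference of -1.38 (limma adjusted p = 4.58e-05). The position of the remaining tags relative to the deleted part is unknown here, so Nos3 is a weak check of the labels. Nos1 and Nos2 were looked for but not found under those symbols among the genes analysed. The 10 alveolar type 1 genes and the 20 pan-endothelial genes that check the tissue were all tested and none had a mean under 1 CPM. Over all genes tested, 16.6% were called higher and 14.3% lower in the knockout.

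Emcn, Ednrb and Sirpa rose in the triple knockout, and the other 5 genes were not called (limma, adjusted p under 0.05 over all genes). The 3 called genes are 37.5% of the 8, against 30.9% of all genes tested called in either direction, so the number called is close to the background share. The median log2 difference of the 8 genes was 0.21, against 0.013 for all genes tested. Genotypes did not overlap for Emcn, Ednrb and Sirpa, all higher in the knockout, where 31.2% of all genes tested showed no overlap and 16.8% did so with the knockout higher. On recovered reads edgeR and DESeq2 also called 3 of the 8 genes higher and 0 lower, beside 32.5% of all genes called by edgeR (16% higher) and 31.7% by DESeq2 (15.6% higher).

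**Figure D1:**
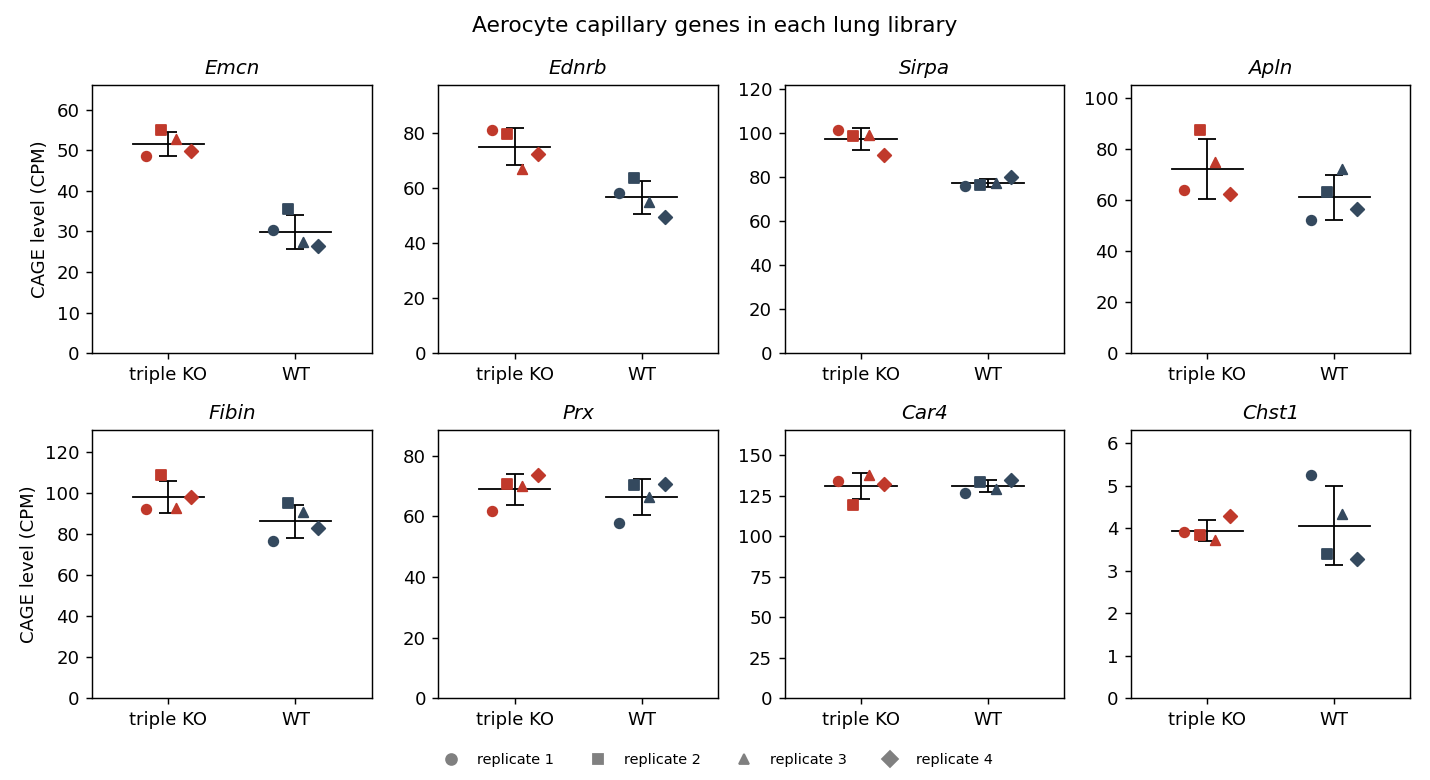
Level of each of the 8 genes in CPM (vertical axes, from 0) in the triple knockout and WT libraries; each point is 1 library, the marker shape is its replicate number, and the bar and whiskers are the mean and SD of 4 libraries. All knockout points lie above all WT points for Emcn, Ednrb and Sirpa, while the points of Apln, Fibin, Prx, Car4 and Chst1 overlap.

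Emcn encodes endomucin, a sialic acid-rich surface mucin of capillary and venous endothelium. Its level was 48.5, 55.0, 52.9 and 49.9 CPM in the knockout libraries and 30.3, 35.6, 27.4 and 26.4 CPM in the WT libraries. The lowest knockout library was thus well above the highest WT library. The log2 difference was 0.78 (SE 0.0938, limma adjusted p = 0.000178), a 1.72-fold rise with a 95% interval of 1.49 to 1.99. In size this difference exceeded that of 95.4% of all genes tested. With any 1 library left out the log2 difference stayed between 0.73 and 0.87 and the call held (adjusted p = 8.48e-05 to 0.00102).

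Ednrb encodes the endothelin B receptor. It stood at 81.2, 79.7, 66.9 and 72.2 CPM in the knockout libraries, against 58.1, 63.6, 55.1 and 49.5 CPM in the WT libraries. The gap between the nearest libraries of the genotypes was small, 66.9 CPM in knockout replicate 3 and 63.6 CPM in WT replicate 2. The log2 difference was 0.40 (SE 0.0891, limma adjusted p = 0.00629), which is 1.32-fold with a 95% interval of 1.16 to 1.52.

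Sirpa encodes the signal regulatory protein alpha, an inhibitory receptor that binds CD47 on other cells and is best known from macrophages and other myeloid cells. Its level was 101, 98.4, 99.0 and 90.1 CPM in the knockout libraries and 75.9, 76.4, 77.2 and 80.0 CPM in the WT libraries. The WT libraries lay within a narrow band, with a coefficient of variation of 2.33%, against 5.07% in the knockout. The log2 difference was 0.33 (SE 0.0583, limma adjusted p = 0.00205), or 1.25-fold with a 95% interval of 1.15 to 1.37.

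The secreted products Apln and Fibin had intermediate differences. Apln encodes apelin, the peptide ligand of the receptor Aplnr, and its level was 63.7, 87.4, 75.0 and 62.2 CPM in the knockout libraries and 52.0, 63.1, 72.1 and 56.6 CPM in the WT libraries. The libraries of the genotypes overlapped, with 1 knockout library well above the rest. The log2 difference was 0.24 (SE 0.123, limma adjusted p = 0.166), and the 95% interval of the fold ran from 0.977 to 1.42. Fibin encodes a secreted protein first described as a fin bud factor in zebrafish. Fibin stood at 92.2, 109, 92.8 and 98.2 CPM in the knockout libraries and at 76.9, 95.1, 90.9 and 83.0 CPM in the WT libraries. Only WT replicate 2 reached into the knockout range. The log2 difference of Fibin was 0.18 (SE 0.0813, limma adjusted p = 0.11), with an unadjusted 95% interval of the fold from 1.003 to 1.28.

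Prx, Car4 and Chst1 showed the smallest differences. Prx encodes periaxin, a scaffold protein of Schwann cells that lung capillary endothelium also makes. Prx stood at 61.7, 70.5, 69.8 and 73.7 CPM in the knockout libraries and at 57.9, 70.2, 66.5 and 70.8 CPM in the WT libraries. In both genotypes replicate 1 held the lowest value, and the remaining libraries lay close together. The log2 difference was 0.056 (SE 0.0814, limma adjusted p = 0.633), with a 95% interval of the fold from 0.918 to 1.18. Gm15541, on the other strand, overlaps Prx but is not among the genes listed. As the use of strand was not stated, whether any of its tags were counted as Prx is unknown.

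Car4 encodes the carbonic anhydrase anchored to the outer face of the capillary membrane, where it speeds the release of carbon dioxide from bicarbonate. Car4 stood at 134, 119, 138 and 132 CPM in the knockout libraries and at 127, 134, 129 and 135 CPM in the WT libraries. The WT range lay inside the knockout range. The log2 difference was -0.0051 (SE 0.0601, limma adjusted p = 0.956), and the 95% interval of the fold, 0.909 to 1.09 lies below the fold estimated for Emcn, Ednrb or Sirpa. Chst1 encodes a sulfotransferase that modifies keratan sulfate and was the scarcest of the 8 genes, with 51 to 88 reads per library. Chst1 stood at 3.91, 3.85, 3.73 and 4.30 CPM in the knockout libraries and at 5.26, 3.39, 4.33 and 3.27 CPM in the WT libraries. The knockout values were close together and the WT values lay on both sides of them. Its log2 difference was -0.017 (SE 0.146, limma adjusted p = 0.941), and the interval of the fold, 0.791 to 1.24, is wide. The directions of Prx, Car4 and Chst1 changed with the scaling or with the libraries left out.

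In order of mean level over all libraries, tags of Car4 were the most frequent, followed by Fibin, Sirpa, Prx, Apln, Ednrb, Emcn and, far below, Chst1. Prx, Apln and Ednrb were not separated beyond their spread, with knockout means of 68.9 ± 5.12, 72.1 ± 11.7 and 75.0 ± 6.67 CPM and WT means of 66.4 ± 5.95, 61.0 ± 8.71 and 56.6 ± 5.90 CPM (SD, n = 4). Fibin and Sirpa, neighbours in the order, were likewise close in both genotypes, at 98.1 ± 7.81 and 97.2 ± 4.93 CPM in the knockout and 86.5 ± 8.11 and 77.4 ± 1.80 CPM in WT.

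**Figure D2:**
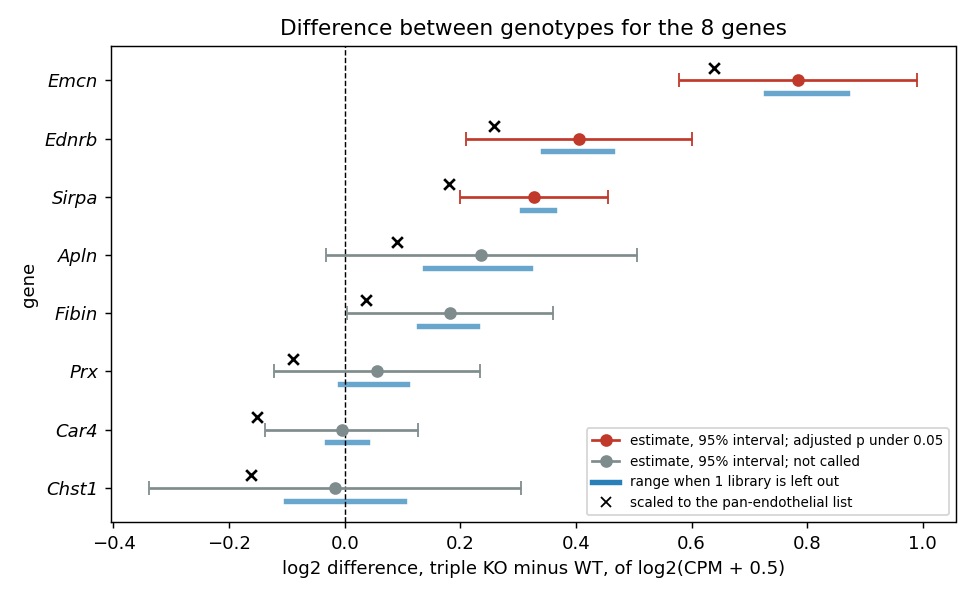
Log2 difference of each gene, triple knockout minus WT, on log2(CPM + 0.5) (horizontal axis), with its 95% interval from limma; the bar under each estimate is the range over fits with 1 library left out, and the cross above it is the estimate after scaling to the pan-endothelial list. Emcn stands farthest to the right at 0.78, and the crosses of Prx, Car4 and Chst1 lie left of 0.

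The 8 genes did not move as a block. Measured against Car4 in the same library, Emcn was 0.362 to 0.461 of the Car4 level in the knockout and 0.196 to 0.266 in WT. The corresponding ratio was 0.485 to 0.667 in the knockout and 0.367 to 0.476 in WT for Ednrb, and 0.682 to 0.823 in the knockout and 0.572 to 0.598 in WT for Sirpa. With all genes tested relative to Car4, where 22.1% were called and 11.4% called higher, the log2 difference was 0.79 for Emcn (limma adjusted p = 0.000379), 0.41 for Ednrb (0.0212) and 0.33 for Sirpa (0.013). Car4 was chosen as the reference after the data were seen, and its own log2 difference was -0.0051. These estimates therefore had to repeat the unscaled ones and add no separate support. Apln and Fibin were not called relative to Car4 (adjusted p = 0.238 and 0.226). The ratio of Emcn to each of the other 7 genes was higher in every knockout library than in any WT library. The genotypes came closest in its ratio to Sirpa, at 0.478 to 0.559 in the knockout and 0.33 to 0.465 in WT. As Emcn had the largest difference of the 8 genes and its ratios were named after they were seen, they add no separate support. No share over other pairs of genes was computed.

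Emcn and Ednrb are shown with Car4 to set the start regions of the called genes with the largest differences beside that of the gene with the smallest. The windows are the 250 bases before the RefSeq start of each gene (GRCm38.p6, a later build than the mm9 of the processing notes), with the ETS core GGAA, the site of a factor family that endothelial genes share, in capitals on both strands.
Emcn (chr3:137340828-137341077, plus strand): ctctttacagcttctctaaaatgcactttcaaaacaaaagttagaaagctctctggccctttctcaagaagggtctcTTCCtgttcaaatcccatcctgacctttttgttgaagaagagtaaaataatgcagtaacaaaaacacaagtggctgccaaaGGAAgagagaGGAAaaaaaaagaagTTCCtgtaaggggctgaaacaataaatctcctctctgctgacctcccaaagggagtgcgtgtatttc
Ednrb (chr14:103843702-103843951, minus strand): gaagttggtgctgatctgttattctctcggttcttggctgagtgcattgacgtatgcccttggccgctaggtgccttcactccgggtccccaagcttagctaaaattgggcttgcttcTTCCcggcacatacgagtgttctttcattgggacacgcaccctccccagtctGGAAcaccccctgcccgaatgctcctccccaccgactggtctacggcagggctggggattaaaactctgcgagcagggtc
Car4 (chr11:84957504-84957753, plus strand): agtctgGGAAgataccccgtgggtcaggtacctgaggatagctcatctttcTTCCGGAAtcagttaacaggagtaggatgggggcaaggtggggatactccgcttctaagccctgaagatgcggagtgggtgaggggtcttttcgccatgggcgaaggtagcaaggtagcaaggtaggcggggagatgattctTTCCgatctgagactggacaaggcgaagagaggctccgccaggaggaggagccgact

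The Emcn window held 4 matches, the Ednrb window 2 and the Car4 window 4, of which a pair abuts as TTCC and GGAA. At least 1 match is present in 93.4% of the 32851 promoter windows of the same length, so these matches describe the windows and do not set them apart. The Emcn window held 1 CpG, a number that 18.8% of all windows do not exceed, while those of Ednrb and Car4 held 11 each. Few CpG were not particular to Emcn, as the windows of Chst1 and Prx, which were not called, held 1 and 2. Promoter sequences matched 7 of the 8 genes, all except Sirpa. The Prx window held 5 matches of CACCC, the core bound by Kruppel-like factors, on both strands and with overlaps counted, a number reached by 0.667% of windows. This was the rarest count among several motifs scanned in the 7 windows, picked after it was seen. The other windows held 2 matches of CACCC (Ednrb), 1 (Car4 and Fibin) or 0 (Emcn, Apln and Chst1). A search with the first 200 nt of each of the 8 genes found 0 other genes that match at 97% identity or more along 75 nt.

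The ligands, receptors and processing enzymes that pair with these genes were then compared. Of the 10 tested, 6 were called higher and 0 lower in the knockout (limma, adjusted p under 0.05), and 4 were not called. Over all genes tested, 16.6% were called higher and 14.3% lower. These shares also stand beside the counts of the lists below that are not scaled to a list or gene. After scaling to the pan-endothelial list, 928 of all 14065 genes were called higher and 3825 lower. The numbers were 1598 and 1516 after scaling to Car4, and 1329 and 2496 after scaling to the macrophage and monocyte list. The median log2 difference of the 10 genes was 0.27. Aplnr, the apelin receptor of general capillary cells, stood at 85.3, 111, 89.9 and 97.7 CPM in the knockout libraries, against 59.0, 47.9, 50.7 and 50.0 CPM in the WT libraries. Every knockout library was higher, with a log2 difference of 0.88 (SE 0.0917, limma adjusted p = 6.83e-05) or 1.84-fold. Tags of the ligand gene per tag of its receptor gene, the Apln to Aplnr ratio, were 0.636 to 0.834 in the knockout and 0.882 to 1.42 in WT and did not overlap.

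Among endothelin genes, Edn3, which encodes a ligand that endothelin B binds with high affinity, stood at 27.7, 27.2, 28.4 and 27.7 CPM in the knockout libraries and at 18.8, 17.5, 22.3 and 17.1 CPM in the WT libraries. The rise of Edn3 was 1.46-fold (log2 difference 0.55, SE 0.0889, limma adjusted p = 0.00115). Ednra, the endothelin A receptor of smooth muscle and other mural cells, rose 1.34-fold, to 121 ± 4.19 CPM in the knockout against 90.8 ± 7.24 CPM in WT (SD, n = 4; limma adjusted p = 0.00115). The ratio of Ednrb to Ednra was 0.581 to 0.651 in the knockout and 0.56 to 0.691 in WT, and so overlapped. Ece1, the main endothelin-converting enzyme, rose 1.17-fold (235 ± 6.29 CPM in the knockout and 201 ± 12.1 CPM in WT; limma adjusted p = 0.0132), a call that ended after scaling to Car4 (adjusted p = 0.0781). Edn1, the main vasoconstrictor endothelin of endothelium, stood at 25.7 ± 5.39 CPM in the knockout and 21.1 ± 4.25 CPM in WT (limma adjusted p = 0.202), and Ece2, a related enzyme, at 7.31 ± 0.507 CPM in the knockout and 7.30 ± 0.362 CPM in WT (limma adjusted p = 0.996).

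Vegfa, the growth factor that alveolar type 1 cells supply to aerocytes, rose 1.46-fold (1608 ± 133 CPM in the knockout and 1101 ± 27.2 CPM in WT; limma adjusted p = 0.000203). Its receptor gene Kdr, which aerocytes carry at high level, stood at 124, 141, 125 and 125 CPM in the knockout libraries and at 96.8, 102, 132 and 103 CPM in the WT libraries. WT replicate 3 alone reached the knockout range of Kdr. The log2 difference of Kdr was 0.26 (SE 0.0933, limma adjusted p = 0.0581). Kdr was called without WT replicate 3 (0.35, adjusted p = 0.00619), with TMM scaling, with median-ratio scaling and by DESeq2. These were 4 of 18 alternatives, not counting scaling to a list or gene, and the adjusted p ran up to 0.153. Scaled to the pan-endothelial list, Kdr stood at 0.11 and was not called (limma adjusted p = 0.268). Nor was it called relative to Car4 (0.123) or to the macrophage and monocyte list (0.194). Flt1, the other VEGF receptor, stood at 93.5 ± 16.6 CPM in the knockout and 86.8 ± 8.47 CPM in WT (limma adjusted p = 0.541). Cd47, the binding partner of Sirpa on most cells, rose 1.16-fold (428 ± 9.76 CPM in the knockout and 367 ± 9.95 CPM in WT; limma adjusted p = 0.00738), but not under quantile normalization, where its adjusted p was 0.164. After scaling to the pan-endothelial list or to the macrophage and monocyte list, 4 of these 10 genes were called higher, Ece1 and Cd47 no longer among them. In those fits 6.6% and 9.45% of all genes were called higher. The authors list a second entry named Cd47 at a much lower level, and the values given are of the first.

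**Figure D3:**
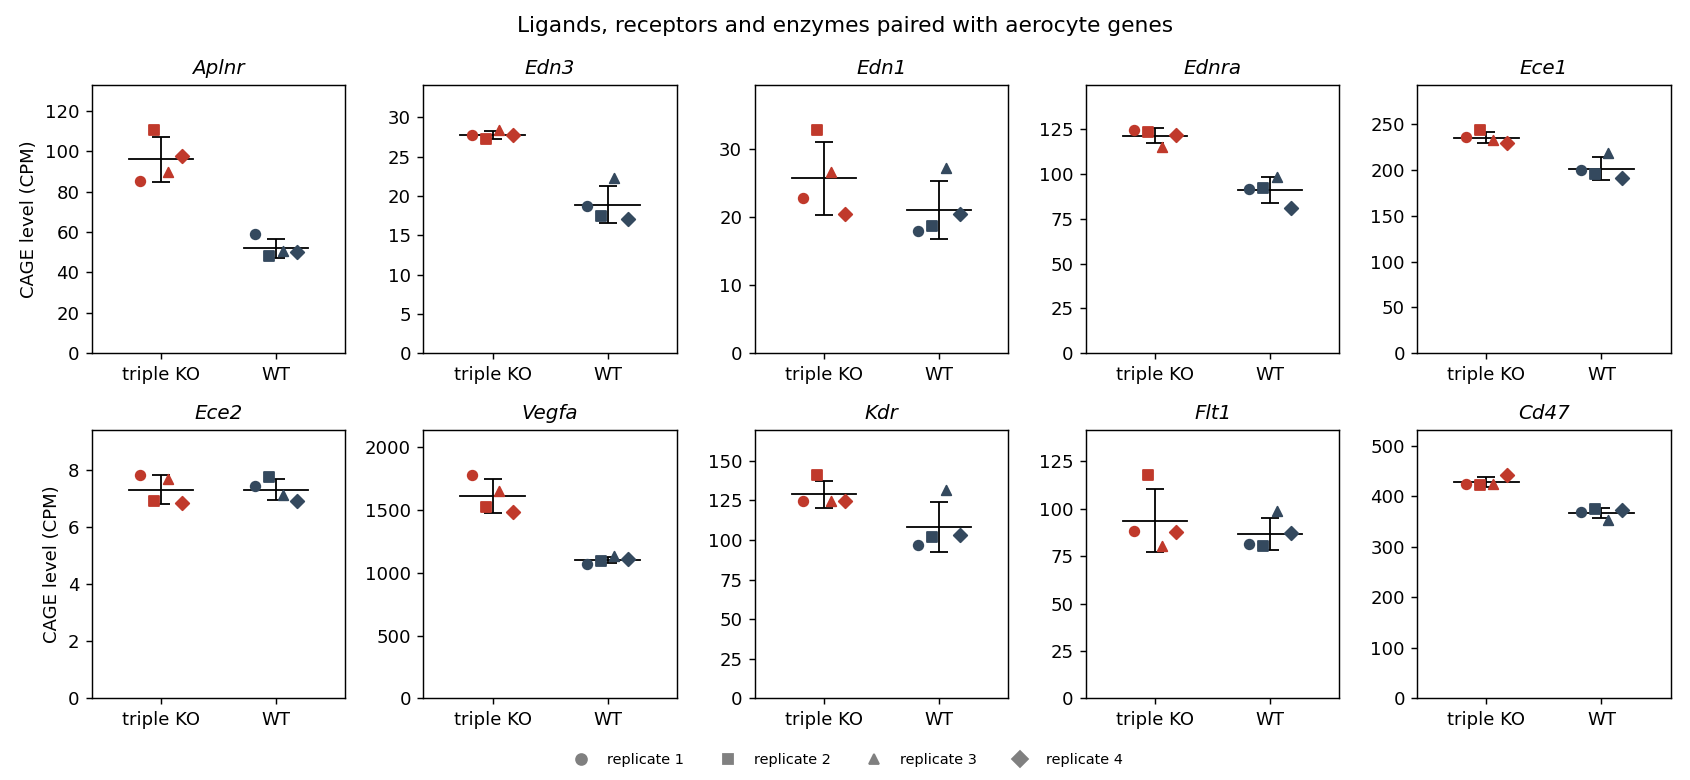
Level in CPM (vertical axes, from 0) of the ligand, receptor and enzyme genes that pair with the aerocyte genes, in the triple knockout and WT libraries; points are libraries, bars and whiskers are means and SD of 4. Knockout and WT points do not overlap for Aplnr, Edn3, Ednra, Ece1, Vegfa and Cd47.

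Other aerocyte-enriched genes went both ways: of 12 tested, 4 rose and 3 fell, with a median log2 difference of 0.27. Those that rose were the cyclin-dependent kinase inhibitor gene Cdkn2b (46.3 ± 5.12 CPM in the knockout and 34.1 ± 2.04 CPM in WT; limma adjusted p = 0.00402), the secreted peptide gene Enho, Tmcc2 and the VEGF co-receptor gene Nrp1. Nrp1 lost its call without WT replicate 4 (adjusted p = 0.0527). Those that fell were Hpgd, whose enzyme degrades prostaglandins (636 ± 43.9 CPM in the knockout and 802 ± 30.4 CPM in WT; limma adjusted p = 0.00276), Pmp22 and the transcription factor gene Tbx2. Tbx2 stood at 94.3, 83.2, 74.9 and 67.1 CPM in the knockout libraries and at 94.9, 107, 101 and 91.7 CPM in the WT libraries (limma adjusted p = 0.0327). Its call ended without knockout replicate 3 or 4 or WT replicate 1, 2 or 3 (adjusted p up to 0.0904). After scaling to the pan-endothelial list, 1 gene of this list was called higher and 4 lower. In that fit 928 of all 14065 genes were called higher and 3825 lower. After scaling to Car4, 3 were called higher and 1 lower, and Tbx2, Pmp22 and Nrp1 lost their calls (adjusted p = 0.071, 0.115 and 0.07).

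General capillary genes were called higher for 6 of 14 and lower for 0, with a median log2 difference of 0.12. With knockout replicate 2 left out, or with TMM scaling, median-ratio scaling, quantile normalization, edgeR or DESeq2, 1 or 2 were also called lower. After scaling to the pan-endothelial list 3 were, where 3825 of all 14065 genes were called lower. Besides Aplnr, the genes called higher included Glp1r, the receptor of glucagon-like peptide (87.9 ± 12.9 CPM in the knockout and 46.4 ± 3.48 CPM in WT, limma adjusted p = 0.000103), the semaphorin gene Sema3c (399.8 ± 38.5 CPM in the knockout and 270.2 ± 17.9 CPM in WT) and Hilpda, a lipid droplet gene listed as 2310016C08Rik (148 ± 10.5 CPM in the knockout and 103.9 ± 7.75 CPM in WT).

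Of 20 pan-endothelial genes 7 rose and 0 fell, with a median log2 difference of 0.10, and 4 rose without knockout replicate 2 or 3 or WT replicate 1, 2 or 4. With TMM, median-ratio or quantile scaling, edgeR, DESeq2, the replicate block or knockout replicate 2 left out, 1 was also called lower. The called genes with the smallest adjusted p were Mmrn2, an endothelial matrix protein gene (31.4 ± 2.54 CPM in the knockout and 18.8 ± 3.33 CPM in WT; limma adjusted p = 0.000954), the transcriptional repressor gene Bcl6b, the receptor kinase gene Tie1 and Calcrl, the receptor of adrenomedullin and CGRP. After scaling to the macrophage and monocyte list, 2 of the 20 were called higher and 1 lower, and Tie1 and Calcrl lost their calls (adjusted p = 0.0873 and 0.0723). The mean log2 level of the list was 6.45 to 6.61 in the knockout libraries and 6.29 to 6.47 in the WT libraries, and overlapped. With every library scaled to that mean, where 33.8% of all genes were called and 6.6% called higher, Emcn kept a log2 difference of 0.64 (limma adjusted p = 0.000457) and Ednrb one of 0.26 (0.0454). Sirpa stood at 0.18 on that scale and was no longer called (adjusted p = 0.0822). Relative to the pan-endothelial list, Prx, Car4 and Chst1 stood at -0.090, -0.15 and -0.16, and none of them was called (adjusted p = 0.435, 0.193 and 0.441).

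**Figure D4:**
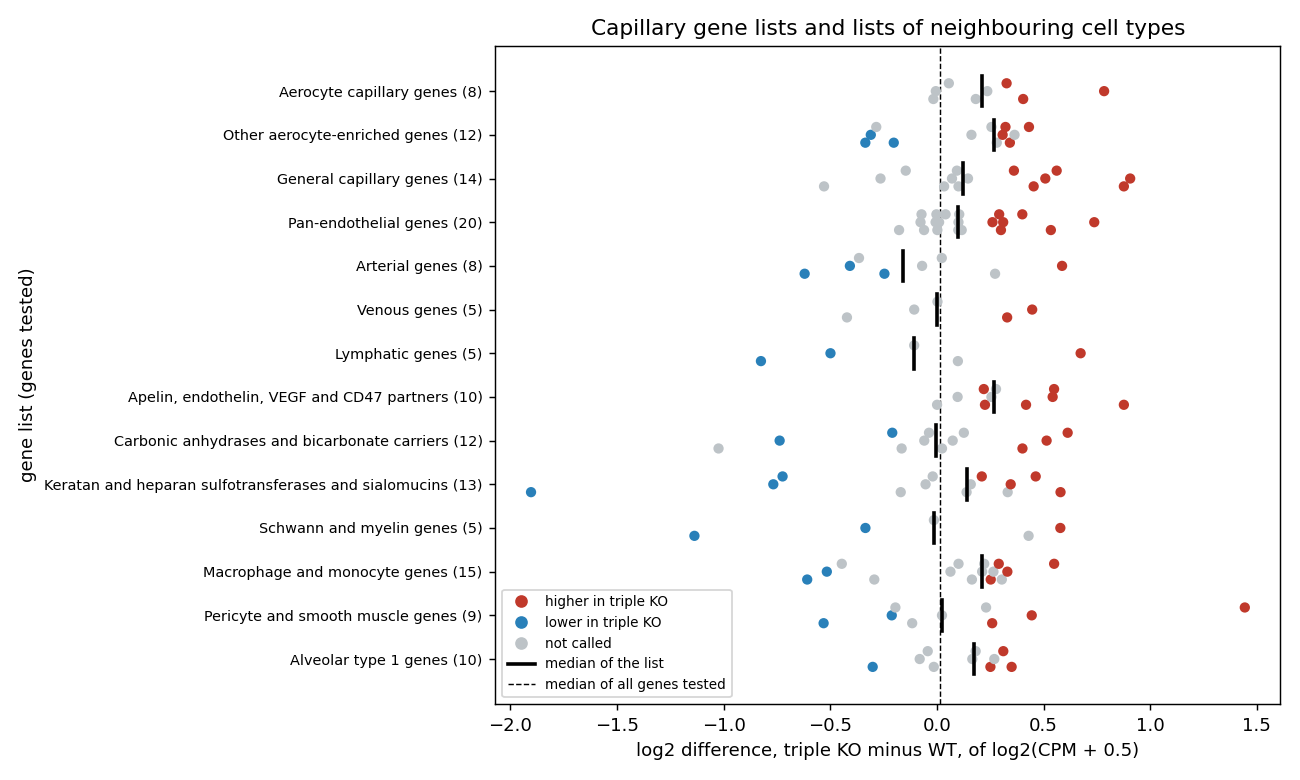
Log2 difference of each tested gene, triple knockout minus WT, on log2(CPM + 0.5) (horizontal axis), by gene list; points are genes, coloured by their call, thick bars are list medians and the dashed line is the median of all genes tested. The aerocyte genes have a median of 0.21, and called points of both directions appear in most of the other lists.

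Emcn is also made by venous cells, and of 5 venous genes tested 2 rose, Vcam1 and Ephb4, and 0 fell (limma), with a median log2 difference of 0.0027. Ephb4 lost its call after scaling to the pan-endothelial list (adjusted p = 0.0521) or to Car4 (0.0534), which left 1 venous gene called higher. The summed level of the venous list was 231.4 to 270.8 CPM in knockout libraries and 200.02 to 234.07 CPM in WT libraries, and overlapped. The largest part of that sum was Ephb4 (118.9 ± 14.2 CPM in the knockout and 94.2 ± 7.09 CPM in WT), while Nr2f2, Vwf and Slc6a2 were not called. Of 8 arterial genes, the connexin gene Gja5 rose (56.6 ± 5.49 CPM in the knockout and 37.6 ± 4.27 CPM in WT) and the Notch ligand gene Dll4 (35.5 ± 2.74 CPM in the knockout and 47.4 ± 4.32 CPM in WT), Cxcr4 and Efnb2 fell, the call of Efnb2 ending without knockout replicate 3 or 4 or WT replicate 1, 2 or 3. Of 5 genes tested on the lymphatic list, Lyve1 and Pdpn fell and Ccl21a rose, at 1.83 ± 0.209 CPM in the knockout and 0.988 ± 0.339 CPM in WT. In WT, Pdpn stood at 195 CPM and Lyve1 at 157 CPM. Prox1 of the same list stood at 0.78 CPM in WT and was too low to test. Which cells made the tags of Pdpn and Lyve1 was not tested, so their fall cannot be assigned to lymphatic cells. The call of Ccl21a ended without WT replicate 2 (adjusted p = 0.0516). The part of venous cells in the rise of Emcn was not tested.

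Sirpa is made by myeloid cells as well as aerocytes. Of 15 macrophage and monocyte genes 4 rose, led by the scavenger receptor gene Marco (53.9 ± 6.52 CPM in the knockout and 36.5 ± 1.99 CPM in WT) and the growth factor receptor gene Csf1r (42.1 ± 2.55 CPM in the knockout and 33.4 ± 1.91 CPM in WT), and 2 fell, Lyz2 and Cd14. Only 2 rose without knockout replicate 2 or without WT replicate 1, 2 or 3, and after scaling to Car4 or to the list itself. After scaling to the pan-endothelial list 1 rose, and Csf1r lost its call (adjusted p = 0.091). None of the 15 was at 0. Their summed level was 3603 to 4295 CPM in the knockout libraries and 5403 to 6098 CPM in the WT libraries, most of it from Lyz2 (3515 ± 358 CPM in the knockout and 5347 ± 359 CPM in WT), and their mean log2 level was 4.64 to 4.85 in the knockout libraries and 4.67 to 4.76 in the WT libraries. With libraries scaled to that mean, where 27.2% of all genes were called and 9.45% called higher, the log2 difference of Sirpa was 0.27 (limma adjusted p = 0.0108). The mean of the list differed by 0.059 between genotypes, and its called genes went both ways. The scaled estimate of Sirpa therefore had to lie near the unscaled 0.33 and adds no separate support. The ratio of Sirpa to Csf1r was 2.25 to 2.35 in the knockout and 2.18 to 2.48 in WT, and so overlapped. The part of myeloid cells in the rise of Sirpa was not tested.

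Prx is a Schwann cell gene too. Of 5 Schwann and myelin genes tested, Cnp fell (27.4 ± 2.39 CPM in the knockout and 34.7 ± 2.17 CPM in WT, limma adjusted p = 0.0098). So did the glial gene S100b, at a low level (0.888 ± 0.306 CPM in the knockout and 2.54 ± 0.549 CPM in WT, limma adjusted p = 0.00148). Mbp was not called (20.1 ± 2.38 CPM in the knockout and 20.3 ± 1.91 CPM in WT, limma adjusted p = 0.928). Nor was Egr2 (9.9 ± 1.89 CPM in the knockout and 7.24 ± 1.51 CPM in WT, limma adjusted p = 0.0715). The part of Schwann cells in the level of Prx was not tested. Of 9 pericyte and smooth muscle genes, which include neighbours of the capillary wall, 3 rose, among them Rgs5 (29.1 ± 10.1 CPM in the knockout and 9.97 ± 0.665 CPM in WT) and Pdgfrb, and 2 fell, Notch3 and Cox4i2. Without knockout replicate 3 or 4 or any 1 WT library, or after scaling to Car4, 1 gene of that list fell. After scaling to the pan-endothelial list, to Car4 or to the macrophage and monocyte list, or without WT replicate 1, 2 rose. Of 10 alveolar type 1 genes, Hopx, Rtkn2 and Cav1 rose and Emp2 fell. After scaling to the pan-endothelial list, 0 type 1 genes were called higher by limma (adjusted p = 0.175 for Hopx, 0.0994 for Rtkn2 and 0.367 for Cav1). Cav1 also lost its call with quantile normalization (adjusted p = 0.0746) and after scaling to the macrophage and monocyte list (0.0737), and Rtkn2 after scaling to Car4 (0.0513). Without knockout replicate 4, 5 type 1 genes rose.

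Genes related to Car4 and Chst1 were compared next. Of 12 carbonic anhydrases and bicarbonate carriers tested, the mitochondrial carbonic anhydrase gene Car5b and the sodium bicarbonate cotransporter genes Slc4a4 (13.2 ± 1.06 CPM in the knockout and 8.45 ± 0.609 CPM in WT; limma adjusted p = 0.000817) and Slc4a7 rose, and Car8 and the red cell anion exchanger gene Slc4a1 fell. The call of Car5b ended after scaling to the pan-endothelial list (adjusted p = 0.0756). The call of Car8 ended without WT replicate 1 or 3 and after scaling to Car4 (adjusted p = 0.114), and that of Slc4a1 without knockout replicate 2 or 3 or WT replicate 1 or 4. Of 13 sulfotransferase and sialomucin genes 4 rose and 3 fell. Chst4, a sulfotransferase of mucin-type glycans, fell to 1.79 ± 0.323 CPM in the knockout, against 8.09 ± 1.29 CPM in WT (log2 difference -1.90, limma adjusted p = 7.26e-06). The heparan sulfate sulfotransferase genes Hs6st1 and Hs2st1 also fell, and Chst2 rose. Only 2 of these genes rose without knockout replicate 1, 2 or 3 or WT replicate 1 or 4, and after scaling to the pan-endothelial list, to Car4 or to the macrophage and monocyte list.

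Profiles over the 8 libraries were compared as root mean square distances of log2(CPM + 0.5), each gene centred on its own mean, among 10703 named genes with a mean of at least 5 CPM. For Emcn the nearest were Itih5 and Gngt2, at distances of 0.082 and 0.092. The nearest to Ednrb were C1qtnf12, listed as Fam132a, and Rbm27, both at 0.062. The proteasome subunit gene Psmb2 and Sbno2 were nearest to Sirpa (0.031 and 0.036), and Atl3 and Snrpd1 to Car4 (0.029 and 0.035). Dst and Sptan1, listed as Spna2, were nearest to Apln (0.043 and 0.061), Cux1 and Hist2h2ac to Fibin (0.041 and 0.043), Spns1 and Cstf1 to Prx (both 0.053), and Hivep3 and Gstm7 to Chst1 (0.069 and 0.084). These values describe the 8 libraries and were not tested. Among the 8 genes themselves, Prx and Fibin lay closest to each other (0.11), and Emcn and Chst1 lay farthest apart (0.46).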

How the data were processed

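Lungs of 8 mice were profiled by CAGE, 4 per genotype, taken from the labels. Per the labels' protocols, RNA of integrity number above 7.0 was cap-trapped, barcoded, multiplexed and sequenced as single-end reads of 75 nt. Tools listed without role in the submitters' processing notes are edgeR, HISAT2 2.0.5 and BWA 0.7.12-r1039, and the build listed is mm9. How tags were assigned to genes, and with what use of strand, was not stated there. The authors deposited CPM to 2 decimals, reads per 1000000 reads of a library.

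Whole reads were recovered from the CPM steps (at least 99.96% of values in each library whole within 0.1 reads). The filter kept genes that reach 1 CPM in 4 or more of the 8 libraries. In R 4.3.3, limma 3.58.1 was fitted to log2(CPM + 0.5) using a trended variance, and genotype was the only term. Adjusted p are two-sided Benjamini-Hochberg values over all 14065 genes tested, called under 0.05. edgeR 4.0.16 and DESeq2 1.42.0 were run on the recovered reads as alternatives (edgeR called 2247 genes higher and 2326 lower), beside other pseudocounts, filters and scalings, a replicate block and each library left out. Scaling to a list or a gene subtracts its mean log2 level from each library. The fit was tested on simulated data.

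The members and lists were chosen with earlier results of these data known, and scaling to Car4 or to the macrophage and monocyte list was chosen after seeing the data. Named were the 8 members, every gene tested among their ligands, receptors and enzymes, Nos3, up to 4 called genes of each other list with the smallest adjusted p, and the nearest profiles. Tbx2, Pmp22, Nrp1, Slc4a1, Cox4i2 and the ratios were named after their values were seen. In lists, genes were matched by the deposited symbol, then by GENCODE M21 symbol. First 200 nt of transcripts were compared with blastn 2.17.0. Nothing in the labels says that libraries sharing a replicate number were paired. Separate animals are implied by the labels but not stated for extraction, so p-values measure the spread between these libraries. A gene of the Schwann and myelin list is not reported here.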

Additional observations from a re-analysis of the deposited data

Results flagged for a closer look

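In none of the 8 aerocyte genes did 1 library stand apart from the other 3 of its genotype by Dixon's test. Among 132 groups of 4 libraries checked over 66 named genes, 4 libraries did, and chance gives about 1 in 20. Kdr was 141.13 CPM in knockout replicate 2 and 124.47 to 124.79 CPM in the other knockout libraries. Cd47 was 442.21 CPM in knockout replicate 4 and 421.14 to 423.86 CPM in the others. Ccl21a was 1.52 CPM in knockout replicate 1 and 1.92 to 1.96 CPM in the others. Rgs5 was 8.98 CPM in WT replicate 4 and 10.22 to 10.41 CPM in the other WT libraries.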

How the results depend on the processing

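Emcn and Ednrb kept their direction and call in every alternative run. Sirpa did except after scaling to the pan-endothelial list (0.18 on the log2 scale, adjusted p = 0.0822). Apln and Fibin were higher but not called in any alternative. Prx turned to -0.090 with that scaling, to -0.0034 scaled to the macrophage and monocyte list, and ran from -0.0076 to 0.11 with 1 library left out. With 1 library left out, Car4 ran from -0.031 to 0.038 and Chst1 from -0.10 to 0.10, and Chst1 was 0.041 with quantile normalization. Ece2 was -0.019 with TMM scaling, -0.017 with median-ratio scaling, -0.018 with edgeR and DESeq2, -0.15 scaled to the pan-endothelial list, -0.059 scaled to the macrophage and monocyte list, and -0.031 to 0.030 with 1 library left out. Flt1 was -0.049 scaled to the pan-endothelial list and -0.018 to 0.16 with 1 library left out. Over all genes, 928 were higher and 3825 lower after scaling to the pan-endothelial list (median log2 difference -0.13), and 1329 were higher and 2496 lower after scaling to the macrophage and monocyte list, against 2341 higher and 2010 lower as deposited. Leaving out 1 library gave 1741 to 2387 higher and 1552 to 2100 lower. The cause of these moves was not tested. As a replicate block, the replicate number gave 2384 higher and 2014 lower and the same 3 aerocyte calls. Libraries sharing a number did not deviate together (correlations -0.003 to 0.065). Depth limits Chst1 most, at 51 to 88 reads a library.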
